A study of Homo sapiens with 4 samples.

Results

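Focal adhesions are plaques of protein that join integrins, the matrix receptors of the plasma membrane, to actin filaments inside the cell. Talins and kindlins bind integrin tails and switch the receptors on, filamins, alpha-actinins and vinculin carry force to actin, and adaptors and tyrosine kinases such as FAK and SRC turn the attachment into signals that reach small GTPases. In carcinoma cells these plaques are known for their part in spreading, migration and invasion. The genes described here are 47 that encode plaque scaffolds, actin linkers and kinases, chosen as a list by function, without integrins and without the paxillin family. All 47 had rows in the count tables, among 22851 gene symbols in all. Of the 47, 45 passed the filter on low counts, while LIMS2 and TNS1 had at most 3 counts in any library and were not tested.

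RNA was sequenced from PC-3M-luc, a human prostate carcinoma cell line that carries a luciferase reporter, at passages 17 to 20. Cells were transfected with a control RNAi duplex or with RNAi against LSD1 and were harvested after 72 h, with 2 libraries in each group that the labels call biological replicates. LSD1 is a histone demethylase encoded by KDM1A. The comparison of knockdown with control asks which transcripts differ once LSD1 is depleted, and the series title places the question in metastasis of androgen-independent prostate cancer. The labels describe RNAi, whereas the series design text speaks of a knockout. All 4 libraries come from 1 line, and no source used here gives the duplex sequences.

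Counts assigned to genes ranged from 12041027 to 12831781 per library. At that depth 3 counts corresponded to 0.234 to 0.249 CPM (library-scaled counts) before TMM scaling. CPM of single genes are given with TMM scaling, and the summed marker values below without it. KDM1A was at 235.1 and 238.1 CPM in the control libraries and at 17.8 and 18.1 CPM in the knockdown libraries (edgeR quasi-likelihood test, log2 fold change -3.72, adjusted p = 2.98e-24). The cells carried epithelial transcripts (KRT8, KRT18, KRT19, EPCAM), whereas the prostate genes KLK3 and FOLH1 had 0 counts. Of the markers of other cell types, PTPRC and CD3E (leukocytes), CDH5 (endothelium), LUM (fibroblasts) and DES (smooth muscle) had 0 counts in all 4 libraries. Summed leukocyte markers, mostly CD68, went from 87.1 to 90.8 CPM in control to 48.3 to 50.3 CPM in knockdown libraries, endothelial markers, mostly KDR, from 23.7 to 31.3 to 54.6 to 61.1 CPM, fibroblast markers from 47.3 to 49.2 to 54.7 to 58.9 CPM and smooth muscle markers from 4.09 to 5.56 to 4.99 to 5.07 CPM. Single markers did not all follow their sum: PECAM1 (endothelium) was lower in knockdown libraries, at 1.84 against 3.05 CPM (edgeR adjusted p = 0.0482), and LYZ (leukocytes) higher, at 1.20 against 0.243 CPM (adjusted p = 0.00265). Summed epithelial and prostate markers were at 993.8 to 994.8 CPM in control and 1084 to 1123 CPM in knockdown libraries. KRT8 and EPCAM were called higher, but KRT18 and KRT19 were not called, at 228 against 248 CPM and 458 against 480 CPM in control. COL1A2 (fibroblasts) was called higher, but COL1A1 was not called, at 29.4 against 31.7 CPM. MYH11 (3.6 against 2.6 CPM) and TAGLN (1.2 against 2.1 CPM), both of smooth muscle, went opposite ways and were not called. The part of these markers in the results below was not tested. In bulk RNA, fewer cells with a transcript and less of it per cell cannot be told apart.

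More focal adhesion genes fell than rose after LSD1 knockdown, and 6 of the 10 roles held genes of both directions. At an adjusted p under 0.05, 10 of the 45 tested genes rose (22.2%) and 17 fell (37.8%), against 18.2% and 17.9% of all 13251 tested genes. Together 27 of 45 (60%) were called, against a background of 36.1%. The list was chosen with earlier results of these data known, so its shares beside the background are a description only. Genes with more reads are called more easily: among the 9748 genes whose mean reached 10 CPM, a level chosen after the values were seen, 40.7% were called, and 27 of the 43 focal adhesion genes above it (62.8%). The 2 groups of libraries did not overlap for 39 of the 45 genes (86.7%), against 67.2% of all tested genes. Most changes were modest, with 16 genes called at 1.3-fold or more, 7 at 1.5-fold or more and 3 at 2-fold or more. For called focal adhesion genes the absolute log2 fold change had a median of 0.40, and for all called genes 0.48. The median over the 45 tested genes was -0.12, against 0.0023 over all tested genes, and it ranged from -0.16 without control replicate 1 to -0.07 without control replicate 2. The lead of falls over rises was narrower without control replicate 2 or without knockdown replicate 1 than with all libraries. It was wider without knockdown replicate 2.

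**Figure D1:**
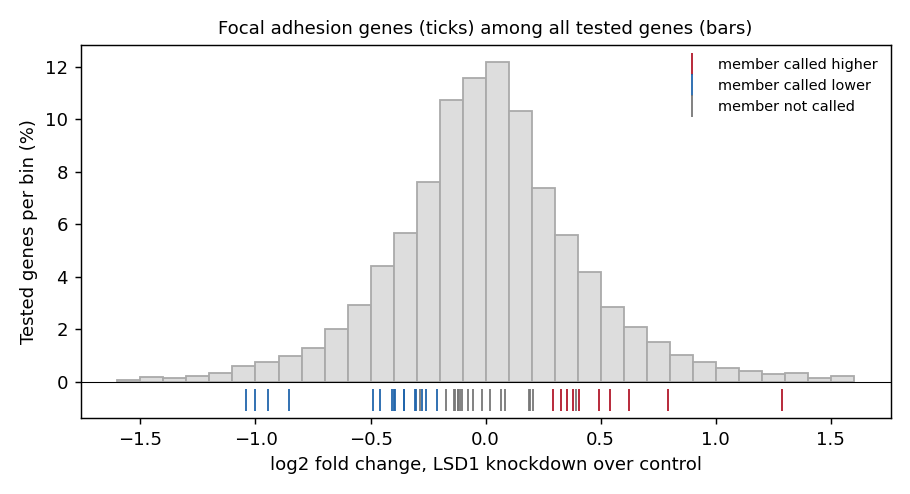
Horizontal axis, log2 fold change of LSD1 knockdown over control; vertical axis, percent of the 13251 tested genes per bin of 0.1 (bars), with 117 genes beyond ±1.6 not drawn. Each tick is 1 of the 45 tested focal adhesion genes, coloured by its edgeR call; 17 ticks are called lower, 10 higher and 18 not called.

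Talins and kindlins, which bind integrin beta tails and activate the receptors, did not move together, as the 2 talins went opposite ways. TLN1, the widely expressed talin, was at 185.7 and 225.7 CPM in control libraries and at 306.8 and 327.8 CPM in knockdown libraries. It rose 1.54-fold (edgeR log2 fold change 0.63, SE 0.0878, adjusted p = 1.04e-06), and both knockdown values lay above both control values. TLN2, the second talin, was at 25.6 and 30.5 CPM in control and at 16.1 and 14.9 CPM in knockdown libraries. TLN2 thus fell 1.81-fold (log2 fold change -0.85, SE 0.124, adjusted p = 1.65e-06), again with no overlap between the groups. Both kindlins fell. FERMT1, the epithelial kindlin, was at 140.8 and 143.9 CPM in control and at 108.5 and 98.8 CPM in knockdown libraries (log2 fold change -0.46, SE 0.0839, adjusted p = 5.78e-05). FERMT2, the kindlin of many adherent cells, was at 219.3 and 236.2 CPM against 176.1 and 170.2 CPM (log2 fold change -0.40, SE 0.0811, adjusted p = 0.000235). Neither kindlin's groups overlapped. TLN1 shares 61 nucleotides of annotated exon with CREB3 on the other strand, and no source used here says that strand was used in counting. CREB3 also rose (edgeR log2 fold change 0.40, adjusted p = 0.00244), with a mean of 518.8 counts beside 3259 for TLN1.

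Of the 5 genes that link or crosslink actin, 4 fell and 1 did not pass. FLNA, the filamin that crosslinks actin and binds integrin tails, had the most counts of all 47 genes on average over the 4 libraries. It was at 2775 and 3110 CPM in control libraries and at 1398 and 1654 CPM in knockdown libraries, and the 2 control values were the higher ones by a wide margin. The fall was 1.93-fold (edgeR log2 fold change -0.95, SE 0.0932, adjusted p = 1.18e-09). ACTN1, an alpha-actinin that bundles actin, was at 418.6 and 426.2 CPM in control and at 309.0 and 331.3 CPM in knockdown libraries, without overlap (log2 fold change -0.40, SE 0.0808, adjusted p = 0.0002). FLNC, a filamin best known from muscle, fell 1.28-fold to 92.2 and 112.3 CPM, and ACTN4, the other alpha-actinin of non-muscle cells, fell 1.21-fold to 439.9 and 476.9 CPM. VCL, which encodes vinculin, a talin- and actin-binding protein, was at 1728 and 1816 CPM in control and at 1611 and 1651 CPM in knockdown libraries (log2 fold change -0.12, adjusted p = 0.284). Both smaller calls among these depended on single libraries. FLNC was not called without knockdown replicate 1, and ACTN4 was not called without control replicate 2 or without knockdown replicate 1. Over all alternatives the edgeR, limma or DESeq2 adjusted p reached 0.0821 for FLNC and 0.107 for ACTN4, and was 9.3e-07 at most for FLNA.

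The promoter of FLNA is shown because FLNA carried the most counts and because it was the only one of the 39 promoters found for these genes that held a CArG box, the site read by serum response factor. The RefSeq sequence (GRCh38.p14) spans chrX:154374585-154374884 on the minus strand, from 250 bases before to 50 after the gene's start, written 5′ to 3′ with the CArG box in capitals.
FLNA promoter: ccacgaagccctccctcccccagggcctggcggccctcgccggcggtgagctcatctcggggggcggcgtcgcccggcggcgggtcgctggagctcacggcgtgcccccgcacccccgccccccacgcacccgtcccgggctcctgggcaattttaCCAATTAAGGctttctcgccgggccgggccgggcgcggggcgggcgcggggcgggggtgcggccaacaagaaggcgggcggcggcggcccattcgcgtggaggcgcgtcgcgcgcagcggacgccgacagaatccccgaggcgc
Motifs were searched on both strands in windows of this length. The CArG box was held by 1 of 39 promoters of these genes (2.56%) and by 1.29% of 27305 RefSeq promoters. The TEAD motif GGAATG was held by 4 (10.3%) against 14.0%, and the AP-1 motif TGANTCA also by 4 (10.3%) against 7.76%. The TEAD motif was in the windows of DOCK1, which rose, FLNC, which fell, and VCL and TRIP6, which were not called. In DOCK1 it lay after the gene's start. The AP-1 motif stood before GIT1, which rose, ACTN4 and BCAR1, which fell, and TRIP6. A match is a description of these letters only.

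In the complex of integrin-linked kinase, PINCH and parvin, which docks on integrin tails, the parvins rose and the kinase fell. PARVB, the beta-parvin, was at 20.9 and 24.9 CPM in control libraries and at 39.7 CPM in both knockdown libraries. This 1.74-fold rise (edgeR log2 fold change 0.79, SE 0.109, adjusted p = 7.24e-07) left the groups well apart. PARVA, the alpha-parvin that binds actin, was at 30.5 and 36.6 CPM in control and at 48.0 and 46.5 CPM in knockdown libraries (log2 fold change 0.50, SE 0.102, adjusted p = 0.000244). ILK, the pseudokinase at the centre of the complex, was at 89.4 and 83.9 CPM in control and at 64.8 and 66.1 CPM in knockdown libraries. Its fall of 1.32-fold (log2 fold change -0.40, adjusted p = 0.000432) is uncertain in one respect, since its annotated exons overlap those of TAF10 on the other strand over 2374 nucleotides. TAF10 had a mean of 1312 counts beside 944.2 for ILK, and a log2 fold change of -0.16 (adjusted p = 0.151). LIMS1, a PINCH adaptor, was at 76.1 and 70.8 CPM in control and at 76.8 and 76.9 CPM in knockdown libraries (adjusted p = 0.601), and its reads can be shared with near-identical LIMS copies. LIMS2, the other PINCH gene, had 2 and 1 counts in control and 0 and 1 in knockdown libraries.

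Among the tyrosine kinases FYN stood out, as the other genes of the group differed by less than 1.2-fold. FYN, a SRC family kinase, was at 24.2 and 26.3 CPM in control libraries and at 12.4 and 12.1 CPM in knockdown libraries. It fell 2.06-fold (edgeR log2 fold change -1.04, SE 0.126, adjusted p = 7.23e-08), and no value of one group reached the other. PTK2, which encodes FAK, the kinase that autophosphorylates at adhesions and recruits SRC, was at 254.0 and 274.2 CPM against 225.1 and 231.3 CPM, a 1.16-fold fall (adjusted p = 0.0396). SRC itself was at 275.3 and 284.8 CPM against 234.1 and 262.7 CPM and did not pass (log2 fold change -0.17, SE 0.0822, adjusted p = 0.1). YES1, the remaining SRC family gene of the list, was close to level at 250.7 and 254.6 CPM against 250.3 and 235.9 CPM (adjusted p = 0.628). CSK, which holds SRC family kinases inactive, PEAK1, a pseudokinase scaffold, and PTK2B, the FAK relative Pyk2, had log2 fold changes of -0.08, -0.14 and 0.02 with overlapping groups and adjusted p of 0.521, 0.35 and 0.936. PTK2B was the rarest kinase at 8.15 to 8.92 CPM. The FAK call is the least stable of all 27: the adjusted p of PTK2 ran from 0.018 to 0.268 over 12 alternatives and missed the threshold in 6 of them, among them without control replicate 2 and without either knockdown replicate. SRC passed without knockdown replicate 2.

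**Figure D2:**
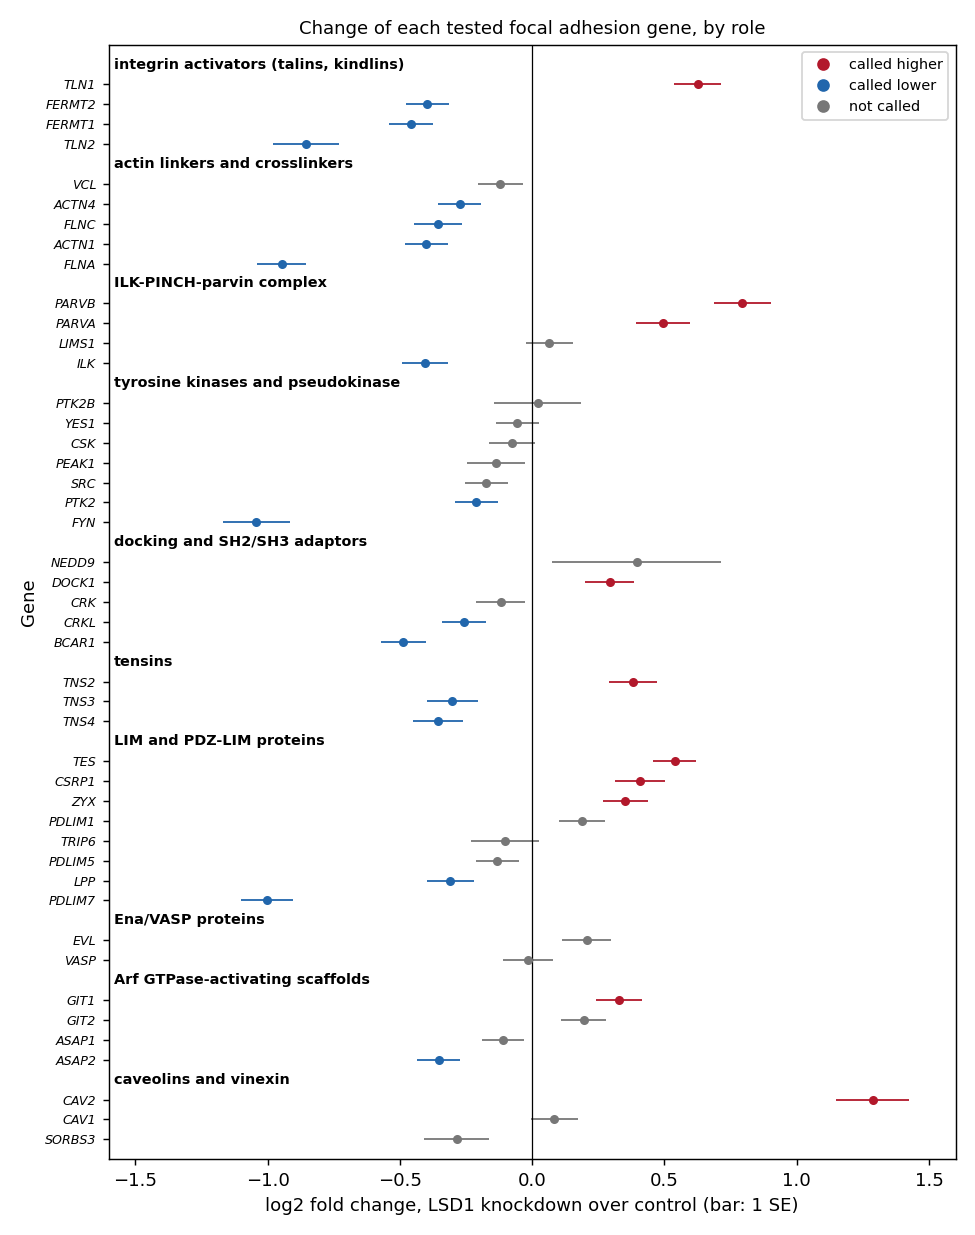
Horizontal axis, log2 fold change of LSD1 knockdown over control with bars of 1 standard error; rows, the 45 tested focal adhesion genes grouped by role. Red marks genes called higher, blue genes called lower and grey genes not called; CAV2 lies farthest right at 1.29 and FYN farthest left at -1.04.

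The docking proteins that FAK and SRC phosphorylate, and their SH2/SH3 adaptors, held 2 that fell, 1 that rose and 2 that did not pass. BCAR1, which encodes p130Cas, was at 130.1 and 128.3 CPM in control libraries and at 86.9 and 97.5 CPM in knockdown libraries. The groups were separate and the fall was 1.40-fold (edgeR log2 fold change -0.49, SE 0.0855, adjusted p = 3.16e-05). CRKL, an adaptor that binds phosphorylated p130Cas, fell 1.20-fold, from 124.0 and 121.8 CPM to 99.6 and 106.0 CPM (adjusted p = 0.0149). DOCK1, the RAC1 exchange factor at the end of this chain, rose 1.23-fold, from 47.2 and 49.4 CPM to 58.0 and 60.3 CPM (adjusted p = 0.012). CRK, the sister adaptor of CRKL, was at 51.9 and 52.7 CPM against 49.0 and 47.2 CPM and was not called (adjusted p = 0.336). NEDD9, the second Cas family scaffold, was rare, with 30 and 16 counts in control and 27 and 35 in knockdown libraries, and its log2 fold change of 0.39 had the largest standard error of the 45 tested genes (SE 0.319, adjusted p = 0.358). Without control replicate 1 neither CRKL nor DOCK1 passed. CRKL was also lost without knockdown replicate 1 and DOCK1 without knockdown replicate 2 and with DESeq2, and over all alternatives their adjusted p reached 0.0941 and 0.104.

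Tensins bind integrin tails at mature adhesions, and the 3 that were tested split. TNS2 was at 50.2 and 52.4 CPM in control libraries and at 63.8 and 69.8 CPM in knockdown libraries, a 1.3-fold rise (edgeR log2 fold change 0.38, SE 0.0917, adjusted p = 0.00132). It shares 57 nucleotides of annotated exon with SPRYD3 on the other strand, which also rose (edgeR log2 fold change 0.47, adjusted p = 0.000324). SPRYD3 had a mean of 600.2 counts beside 735.5 for TNS2. TNS3 went from 52.3 and 62.1 CPM to 46.0 and 46.8 CPM (log2 fold change -0.30, adjusted p = 0.0142), and TNS4, a tensin without the actin-binding region, from 58.5 and 66.5 CPM to 48.1 and 49.5 CPM (log2 fold change -0.36, adjusted p = 0.0031). The groups of all 3 were separate, and both falls were lost without control replicate 2, that of TNS3 also with DESeq2, with an adjusted p of up to 0.304 for TNS3 and 0.0956 for TNS4 over all alternatives. TNS1 had 2 and 3 counts in control and 2 and 0 in knockdown libraries.

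LIM and PDZ-LIM proteins, which shuttle between actin, adhesions and the nucleus, held 3 that rose, 2 that fell and 3 that did not pass. PDLIM7, a PDZ-LIM scaffold of actin filaments, was at 79.7 and 91.5 CPM in control libraries and at 39.5 and 45.8 CPM in knockdown libraries, a 2.00-fold fall with no overlap (edgeR, SE of the log2 fold change 0.0971, adjusted p = 8.36e-10). TES, which encodes testin, rose 1.45-fold, from 147.4 and 150.3 CPM to 225.1 and 207.6 CPM (log2 fold change 0.54, SE 0.0815, adjusted p = 3.4e-06). CSRP1, a LIM-only protein that binds alpha-actinin and zyxin, was at 43.1 and 40.2 CPM against 54.4 and 56.0 CPM (log2 fold change 0.41, adjusted p = 0.000871). ZYX, which encodes zyxin, a tension-sensitive partner of Ena/VASP proteins, was among the most abundant at 939.3 and 936.4 CPM in control and 1156 and 1239 CPM in knockdown libraries. It rose 1.28-fold (log2 fold change 0.35, SE 0.0834, adjusted p = 0.00111), while LPP, a zyxin relative, fell 1.24-fold, from 106.1 and 121.0 CPM to 97.1 and 86.3 CPM (adjusted p = 0.0067). The LPP call was lost without control replicate 2 and without knockdown replicate 2, and its adjusted p reached 0.143 over all alternatives. TRIP6, the third zyxin relative, and the PDZ-LIM genes PDLIM1 and PDLIM5 were not called, with log2 fold changes of -0.10, 0.19 and -0.13. The Ena/VASP genes, whose products extend actin filaments at adhesions, were not called either. EVL was at 56.0 and 62.2 CPM against 64.9 and 71.5 CPM (log2 fold change 0.21, adjusted p = 0.079), and VASP had a log2 fold change of -0.02. EVL passed without knockdown replicate 1.

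Among the Arf GTPase-activating scaffolds 1 gene rose and 1 fell. GIT1, which brings PIX and PAK proteins to paxillin, rose 1.26-fold, from 85.7 and 88.3 CPM to 102.0 and 116.4 CPM (edgeR log2 fold change 0.33, adjusted p = 0.00339). Without knockdown replicate 2 the GIT1 call was lost, and its adjusted p over all alternatives reached 0.0883. ASAP2, which binds FAK family kinases, fell 1.28-fold, from 154.5 and 153.0 CPM to 119.8 and 120.8 CPM (log2 fold change -0.35, adjusted p = 0.000847). The annotated exons of ASAP2 overlap ITGB1BP1 on the other strand over 2209 nucleotides, and that gene had a log2 fold change of -0.49 (adjusted p = 8.39e-05). GIT2 had a log2 fold change of 0.19 (adjusted p = 0.0775) and ASAP1, the most abundant of the group, was at 311.9 and 327.9 CPM against 290.9 and 301.4 CPM (adjusted p = 0.295).

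CAV2 showed the largest change of the 45 genes by log2 fold change. It encodes caveolin-2, which assembles with caveolin-1 into the coat of caveolae. Its values were 8.21 and 9.55 CPM in control libraries and 21.6 and 21.7 CPM in knockdown libraries, from 102 and 116 counts to 264 and 281. The rise was 2.44-fold (edgeR log2 fold change 1.29, SE 0.138, adjusted p = 7.58e-09). CAV1, the main coat protein, was at 69.2 and 68.4 CPM in control and at 71.1 and 74.7 CPM in knockdown libraries and was not called (log2 fold change 0.08, SE 0.0878, adjusted p = 0.489). SORBS3, which encodes the vinculin partner vinexin, was at 24.2 and 23.5 CPM against 17.3 and 21.9 CPM (log2 fold change -0.28, adjusted p = 0.07), and it passed without knockdown replicate 2.

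CAV2 and CAV1 are neighbours on chromosome 7, and their promoters are shown because the adjacent genes differed in response. Both are RefSeq sequences (GRCh38.p14, plus strand, 5′ to 3′, all in lower case since none of the 3 motifs was found), at chr7:116499488-116499787 and chr7:116524759-116525058.
CAV2 promoter: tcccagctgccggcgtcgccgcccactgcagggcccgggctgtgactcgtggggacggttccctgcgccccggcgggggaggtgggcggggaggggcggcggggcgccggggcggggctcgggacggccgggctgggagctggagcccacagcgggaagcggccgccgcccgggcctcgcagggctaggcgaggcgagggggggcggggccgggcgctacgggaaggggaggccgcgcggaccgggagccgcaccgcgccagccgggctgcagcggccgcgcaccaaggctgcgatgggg
CAV1 promoter: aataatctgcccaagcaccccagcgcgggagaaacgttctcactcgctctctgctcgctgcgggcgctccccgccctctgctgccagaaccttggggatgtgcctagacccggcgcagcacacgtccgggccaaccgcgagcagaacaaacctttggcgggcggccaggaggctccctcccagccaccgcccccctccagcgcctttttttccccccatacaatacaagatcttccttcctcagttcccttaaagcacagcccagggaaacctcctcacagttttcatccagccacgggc
The promoter window of CAV2 had a GC content of 82.7%, and that of CAV1 62.3%. In the RefSeq gene order TES is the protein-coding gene just before CAV2, so that 3 of the 47 genes are consecutive protein-coding genes. The next coding genes on either side, looked up after these values were seen, were TFEC, at 7.02 CPM in control and 12.2 CPM in knockdown libraries (edgeR log2 fold change 0.80, adjusted p = 0.000484), and MET, at 487.3 and 769.2 CPM (log2 fold change 0.66, adjusted p = 1.27e-07). Beyond MET, CAPZA2 was not called (log2 fold change -0.17, adjusted p = 0.15). CAV1 was therefore the 1 gene of the run from TFEC to MET that was not called.

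**Figure D3:**
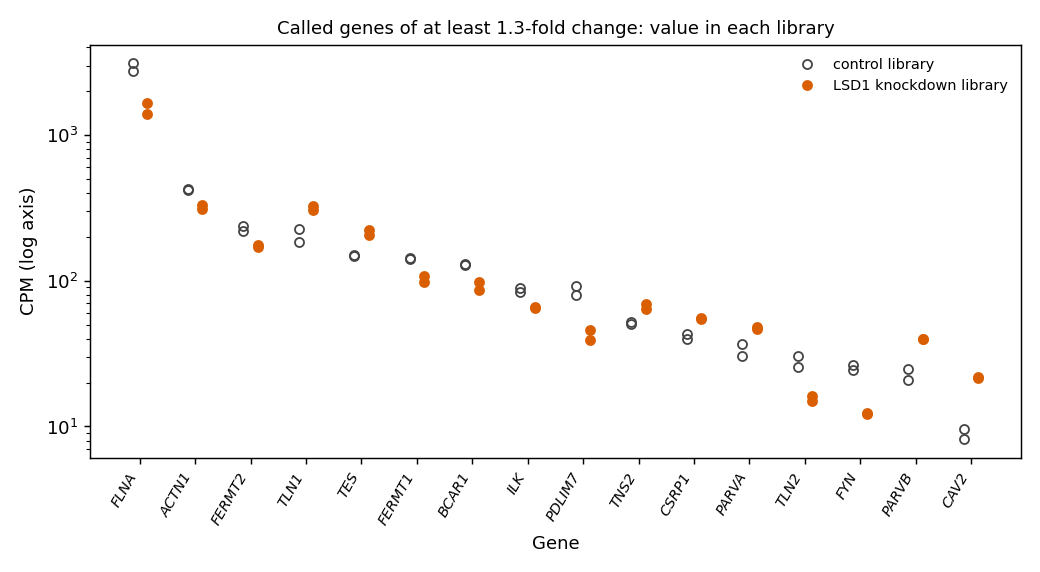
Horizontal axis, the 16 focal adhesion genes called at 1.3-fold or more, ordered by control level; vertical axis, CPM on a log scale. Open circles are the 2 control libraries and filled circles the 2 knockdown libraries of each gene; no gene has overlapping groups, and 9 of the 16 lie lower in knockdown libraries and 7 higher.

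The balance between some related genes differed between the groups. The log2 ratio of counts of TLN1 to TLN2 was 2.86 and 2.89 with the control duplex and 4.25 and 4.46 after knockdown, a shift of 1.48 toward TLN1. For CAV1 to CAV2 the ratio was 3.07 and 2.84 in control and 1.72 and 1.78 in knockdown libraries, a shift of 1.21 toward CAV2 (-1.21 as a change of the ratio). For SRC to FYN the log2 ratios were 3.51 and 3.44 against 4.24 and 4.44. For ZYX to LPP they were 3.15 and 2.95 against 3.57 and 3.84. For FLNA to FLNC, both of which fell, they were 4.38 and 4.60 against 3.92 and 3.88. The parvin ratio was nearly constant within each group, at 0.549 and 0.551 in control and 0.273 and 0.228 in knockdown libraries for PARVA to PARVB. FERMT1 to FERMT2 overlapped between the groups, at -0.64 and -0.71 against -0.70 and -0.78, as did SRC to YES1. Of 16 pairs with both genes tested, 14 had separate groups, some by little, such as GIT1 to GIT2 (0.13), CRK to CRKL (0.14) and ACTN1 to ACTN4 (-0.13). SRC stands in 2 of the pairs, and no share over other gene pairs was computed to set beside this count. An exact two-sided permutation test of 2 libraries against 2 cannot give a p under 0.333, and no other test of the ratios was run.

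**Figure D4:**
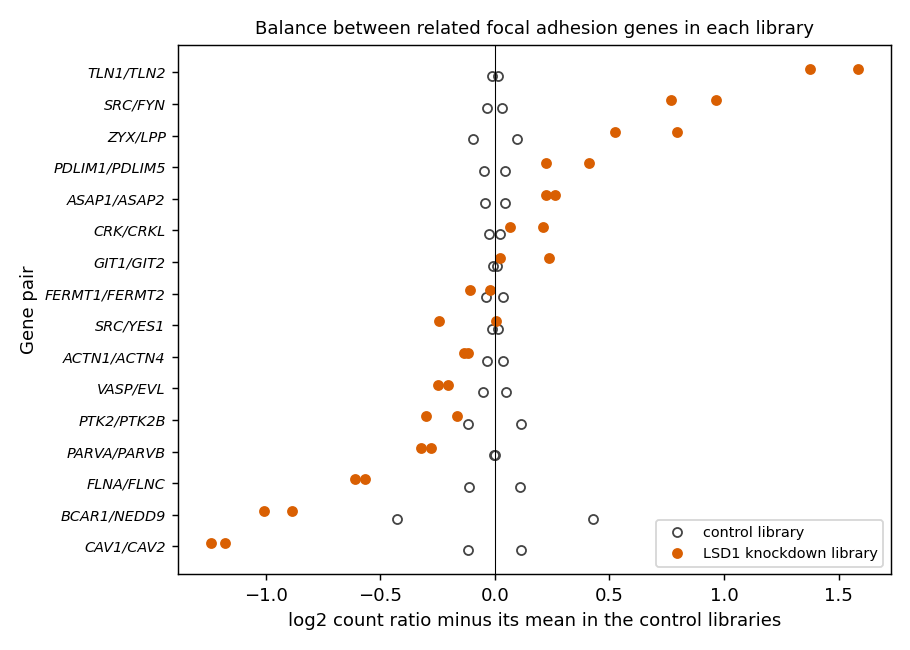
Horizontal axis, log2 ratio of counts of the first to the second gene of a pair, minus its mean in the control libraries; rows, 16 pairs of related genes. Open circles are control libraries and filled circles knockdown libraries; TLN1/TLN2 lies farthest right, at a mean shift of 1.48, and CAV1/CAV2 farthest left, at -1.21.

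Levels of different genes were compared per kilobase of transcript, for the 43 tested genes whose RefSeq transcript matched a GENCODE transcript, which left out PARVA and SRC. In control libraries ZYX (376.2 CPM per kilobase), FLNA (345.5) and VCL (322.8) led. FLNA lay above VCL in each control library, at 325.9 against 314.8 and 365.2 against 330.9, although the ranges of FLNA and VCL overlapped between libraries. ACTN1 (121.9) and ACTN4 (111.7) followed, with ranges of 120.8 to 123.0 and 108.0 to 115.5. In knockdown libraries ZYX was at 480.3, VCL at 297.1 and FLNA at 179.2 CPM per kilobase, and the values of these 3 genes no longer overlapped. NEDD9 (0.411), PTK2B (1.8) and TLN2 (2.36) were lowest in control libraries. CAV2 went from 2.69 to 6.56 CPM per kilobase beside 26.2 and 27.7 for CAV1.

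Transcript rows of a gene gave the same direction. Of the 45 tested genes 30 had several RefSeq rows, which count many of the same reads. In 28 of the 30 the log2 ratio of knockdown to control differed by less than 0.2 between rows. The exceptions were NEDD9, from 0.33 to 0.54, and PDLIM5, where the 2 rows with 94.7 and 97.9 CPM in control libraries had ratios of -0.32 and -0.33 and the 2 rows with 258.7 and 305.7 CPM had -0.12 and -0.13. PDLIM7 rows ranged from -1.04 to -0.86 and CAV2 rows from 1.29 to 1.39. Rows of 1 gene are not replicates, and no test was made between them.

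RNAi duplexes can also act on transcripts that they match over a few bases. An earlier look at these data picked the 7-mer TACTTCG with its form shifted by 1 base, ACTTCGA, as well as CGCGTAC with its shifted form GCGTACA, after the fold changes were seen, as sequences held more often by genes that rose. In GENCODE coding sequences and 3′ UTRs, 1 of the 10 focal adhesion genes that rose held one of them (10%), DOCK1, against 27.9% of the 2240 tested genes that rose. Of the 17 that fell 6 did (35.3%), FLNA, FLNC, ACTN4, PTK2, TNS3 and PDLIM7, against 11% of 2208. Of the 18 not called 6 did (33.3%), against 15.4% of 7502. Longer transcripts have more places for a match, and these shares were not adjusted for length. Of the 6 that fell with a match, FLNA, FLNC and TNS3 have transcripts of 8516, 9188 and 7618 nucleotides. ACTN4, PTK2 and PDLIM7 have 4963, 4414 and 1689. Genes without a match also included long ones, such as LPP (18220) and TLN2 (11880), which fell, and TLN1 (8823), which rose. The part of length was not tested. The sites in DOCK1, FLNA and FLNC are shown because DOCK1 was the single riser with a match and the filamins also hold ACTTCGA. The 2 filamin sites are alike in sequence. The DOCK1 site also holds TACTTCG, as a T stands before ACTTCGA, which is not so at the filamin sites. Each is given as 30 bases of coding sequence, 5′ to 3′, with ACTTCGA in capitals.
DOCK1: aatcatccactACTTCGAcaaaggcaagat
FLNA: agctgacatcgACTTCGAcatcatccgcaa
FLNC: ggctgacattgACTTCGAcatcatcaagaa
The 7-mers CTAGAAG and TAGAAGA, which KDM1A also holds, were in 7 of the 17 that fell (41.2%, against 41.6% of all genes that fell), in 2 of the 10 that rose (20%, against 37.2%) and in 9 of the 18 not called (50%, against 39%). Whether any of these 7-mers belongs to the duplexes is not known, and their part in the changes was not tested.

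Other genes of the adhesion pathway also went both ways. Of 10 adhesion phosphatases and further kinases 2 rose, 1 fell and 7 did not pass (median log2 fold change 0.05). PTPN12, a phosphatase that acts on p130Cas, fell 1.62-fold (edgeR adjusted p = 2.57e-07), and INPPL1 and PTPRA rose 1.3-fold and 1.27-fold. Among 13 tested integrin subunits 2 rose and 4 fell, led by ITGA5, ITGA2 and ITGB5 with log2 fold changes of -1.42, -0.66 and -0.51. Of the paxillin family PXN rose (log2 fold change 1.34) and LPXN fell (-0.46), while TGFB1I1 did not pass the filter. The called shares of the lists of phosphatases and kinases and of integrins, 3 of 10 and 6 of 13, stand beside the background of 36.1%.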

How the data were processed

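The authors deposited 1 headerless table per library with a read count for each RefSeq transcript; that these are raw counts was judged from whole numbers whose totals differ. Per the submitters' processing notes, the tools were TopHat2, HOMER, DESeq 1.8.3 and edgeR, and the build was hg19, without saying which did what. How strand was handled in counting is not given in the sources used here. Of 38767 rows, 37205 were given symbols from a RefSeq table and 471 from GENCODE metadata. The other 1091, with 1.38% to 1.40% of counts, were left out. The row with the highest mean stood for each symbol.

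Genes were tested with the quasi-likelihood test of edgeR 4.0.16 (R 4.3.3), with TMM, filterByExpr (count 10, total 15), a design of group alone, and p-values adjusted by Benjamini-Hochberg across 13251 genes (threshold 0.05). The standard error is the log2 fold change over the root of its F statistic. The script was tested on simulated data. Values are given for members called at 1.3-fold or more and for the most abundant member of each role. From other lists, up to 3 called genes with the smallest adjusted p were named. Results of 1 pathway list and 1 marker are not reported here. Members, lists and 7-mers were chosen with earlier results of these data known. Alternatives were DESeq2 1.42.0, limma-voom (limma 3.58.1), other scalings and filters, sums over rows, a replicate block and leaving out each library. Replicates share only a number in the labels. The p-values rest on the spread between 2 libraries a group, shared across genes, with a biological coefficient of variation of 5.96%. Floors of 3 counts cover counting error only. Gene overlaps come from GENCODE 29 (GRCh38), so they may differ from the counted models. Overlaps on the other strand not named above include VCL with AP3M1 (1109 nucleotides), ACTN4 with CAPN12 (868) and GIT2 with TCHP (2996).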

Additional observations from a re-analysis of the deposited data

How the results depend on the processing

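Over 12 alternatives, 18 of the 27 called focal adhesion genes kept their call in each, 9 lost it in at least 1, 5 of the 18 others passed in at least 1, and 0 reversed. A change of sign counted as a reversal only where the gene was called in the main fit or in the alternative. Genes called in neither could change sign, as PTK2B did, from 0.02 to -0.04 without control replicate 2. DESeq2 called 1564 genes higher against 2412, and 9 and 15 of the focal adhesion genes higher and lower against 10 and 17. With no normalization factor, which moved the median of all genes to 0.0373, the focal adhesion median was -0.084 and the counts were 13 and 16. Leaving out each library gave medians from -0.155 to -0.075, rises from 8 to 11 and falls from 12 to 17. With the replicate number as a block the counts were 11 and 18, where SRC and EVL also passed (edgeR adjusted p = 0.0496 and 0.0466). Deviations of same-numbered libraries had a correlation of 0.0675 across genes, which with 2 libraries a group is 1 value, so the numbers were not taken as pairs. LIMS2 and TNS1 were tested only with no filter. NEDD9 had 16 to 35 counts per library and the largest standard error of the tested genes of the list, 0.319.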
